A study of Polistes metricus with 16 samples.

Results

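A set of 150 transcripts was defined by their counts being higher in the brain of every worker than in that of every foundress, among 16 adult female Polistes metricus. They were selected on CPM, the count divided by the library's total and multiplied by 1000000. Of the 127674 transcript identifiers in the table, 43848 had at least 10 counts in all 16 libraries. In 168 of those (0.383%) the lowest of the 8 workers lay above the highest of the 8 foundresses. The 168 were ranked by mean worker CPM over mean foundress CPM, and the first 150 are the members described here. The opposite pattern, every foundress above every worker, was found in 103 of the 43848 (0.235%). Because all 16 libraries entered this choice, the differences between workers and foundresses below are a description and carry no test.

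Polistes metricus is a social paper wasp. A foundress is an overwintered queen that builds a nest in spring, and a worker is a daughter that later forages and tends brood on it. The castes of paper wasps look much alike, so differences in brain transcripts are a common way of describing them. The table pairs no identifier with a gene, and no function is therefore given for any member, nor were the brains checked against marker genes.

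Each group held 4 wasps, with 1 brain library per wasp, and every wasp had been trained in a T-maze for 40 trials with negative reinforcement. The workers trained to P. fuscatus faces after at least a week on a nest of that species, called allospecific here, were MW30, MW32, MW41 and MW47, all collected in July. Those kept on a foreign nest of their own species, called conspecific, and trained to the same faces were MW21, collected in June, and MW25, MW40 and MW42, collected in July. Foundresses trained to P. fuscatus faces were M30, M67, M79 and M91, collected in June, and foundresses trained to simple patterns were M1, M15, M4 and M5, collected in May. All workers had been moved to a foreign nest, a step the labels do not give for foundresses, so caste cannot be told apart from that move and hardly from the month. All wasps were frozen soon after the last trial.

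Libraries totalled 14949149 to 20528177 counts in workers and 17289375 to 22832434 in foundresses. Workers had 82298 to 88836 identifiers with at least 1 count, and foundresses 89775 to 99735, without overlap. Over the 43848 identifiers, the median of the log2 difference in CPM, workers minus foundresses, was 0.07. A set of 96 identifiers whose log2 CPM followed the most abundant one at a correlation above 0.9 took 2.10% to 19.0% of the counts in workers and 6.28% to 16.6% in foundresses. It took its largest share in MW21, and no member belonged to it. What part these differences between libraries have in the membership was not tested beyond the other scalings given further on.

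The members' summed share of the library averaged 0.540% ± 0.034 among workers and 0.319% ± 0.032 among foundresses (SD over 8 wasps each). By wasp, the share was 0.579% in MW30, 0.490% in MW32, 0.571% in MW41 and 0.519% in MW47. It was 0.522% in MW21, 0.537% in MW25, 0.584% in MW40 and 0.517% in MW42. As a share of library totals, workers from either kind of nest thus covered much the same range, with a mean of 0.540% each. The comparison between nests depended on scaling, as given further on.

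Among foundresses trained to faces the share was 0.291% in M30, 0.304% in M67, 0.362% in M79 and 0.301% in M91. Among those trained to patterns it was 0.287% in M1, 0.300% in M15, 0.363% in M4 and 0.342% in M5. The castes did not overlap in this sum, which the choice of members fixes. In whole brains, more cells of a type and more RNA per cell cannot be told apart. M4 and M79 stood highest among the foundresses, and the same wasps were most often the highest foundress for single members. Over members, the median log2 deviation from the foundress mean was 0.23 in M4 and 0.17 in M79. Over the 43848 identifiers it was 0.07 in M4 and 0.10 in M79, also the highest among foundresses.

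**Figure D1:**
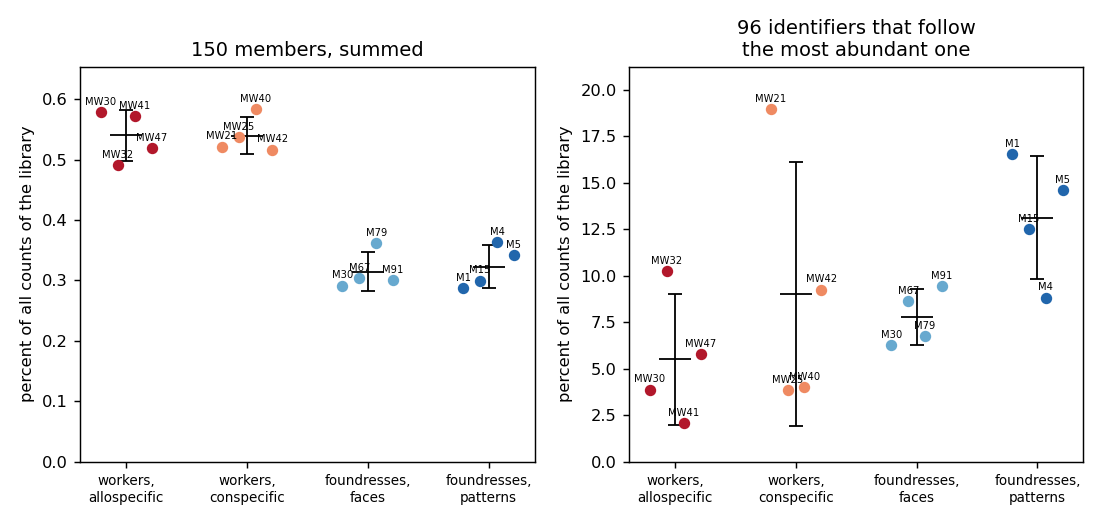
Percent of each library's counts taken by the 150 members (left) and by the 96 identifiers that follow the most abundant one (right), with 1 labelled point per wasp and the mean ± SD of each group of 4. Members took 0.490% to 0.584% in the 8 workers and 0.287% to 0.363% in the 8 foundresses, while the other set ranged from 2.10% in MW41 to 19.0% in MW21.

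Most members differed between castes by less than 2-fold. The ratio of mean worker to mean foundress CPM had a median of 1.57 and a maximum of 4.69. It exceeded 3 in 5 members and 2 in 46, lay above 1.5 and up to 2 in 42, and was 1.5 or less in 62. The last member inside the limit, PmetTSAr2.0-043184, had a ratio of 1.29 with means of 44.5 CPM in workers and 34.4 CPM in foundresses. The first outside it, PmetTSAr2.0-052339, had a ratio of 1.29 with means of 19.4 CPM in workers and 15.04 CPM in foundresses.

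The castes were separated by narrow gaps. The lowest worker stood a median of 1.06 times above the highest foundress, over 1.1 times in 51 members and over 1.5 times in 3. The narrowest gap among members was that of PmetTSAr2.0-075606, at 1.001 times. The nearest identifier that failed to separate, PmetTSAr2.0-061444, had its lowest worker at 0.9995 of its highest foundress. The widest gaps were 1.604 times in PmetTSAr2.0-117441, 1.52 times in PmetTSAr2.0-016321 and 1.51 times in PmetTSAr2.0-061774. Although worker libraries tended to be smaller, the deposited counts themselves, with no scaling, were higher in every worker for 34 of the 150.

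**Figure D2:**
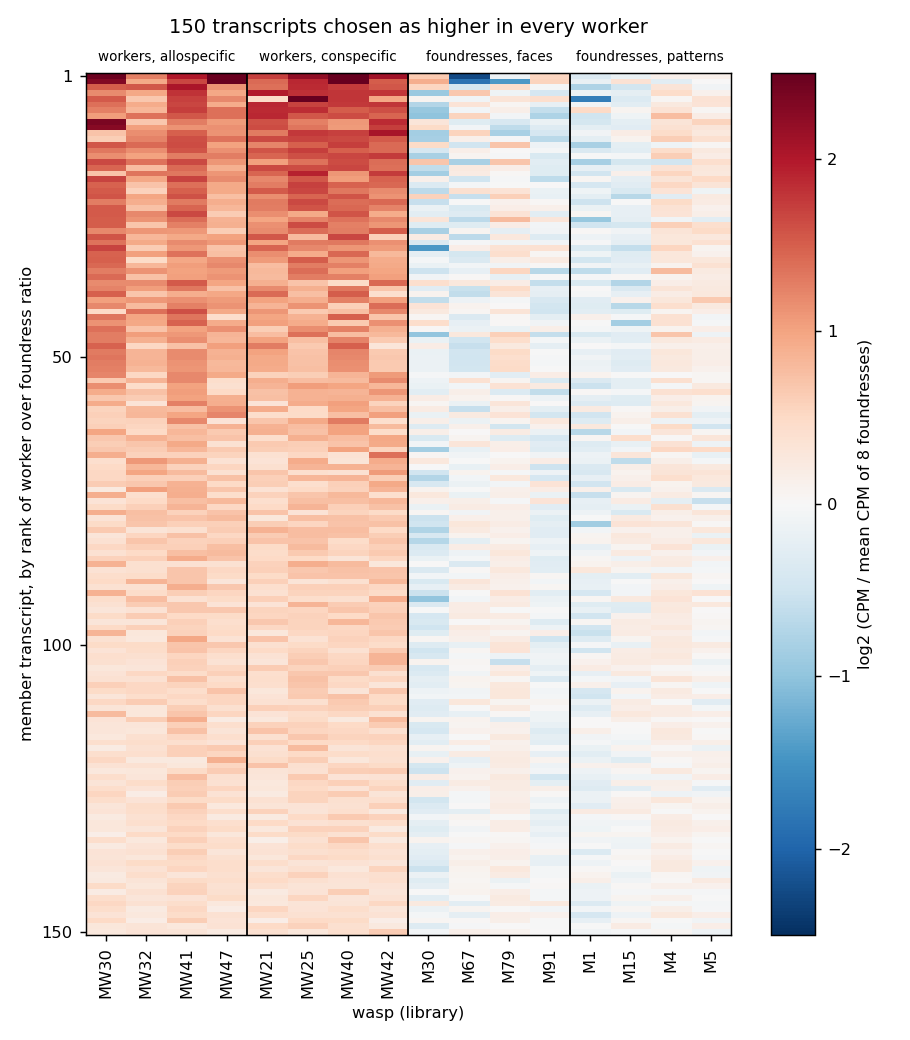
Heat map of the 150 members (rows, ranked by ratio) in the 16 wasps (columns, grouped), as log2 of CPM over the mean CPM of the 8 foundresses. Ratios run from 4.69 in the first row to 1.29 in the last, and the first rows also differ most between wasps of the same caste.

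The lowest and the highest values were not spread evenly over the wasps. MW30 and MW32 were each the lowest worker for 33 members, MW21 for 26, MW47 for 24 and MW42 for 18, against 9 for MW40, 4 for MW25 and 3 for MW41. Among foundresses the highest was M4 for 51 members and M79 for 38, then M5 for 18, M15 for 12, M30 for 11, M67 for 10, M91 for 6 and M1 for 4. With 1 wasp left out, the rule sets fewer conditions, so the identifiers that passed could only become more. Their number was 398 without MW21, 366 without MW30, 328 without M4 and 301 without M79, against 168 with all wasps. Without any other single wasp it was 171 to 231, including 217 without MW32 and 231 without MW47.

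MW21 is the only worker collected in the same month as any foundress. Its value lay within the range of the 7 July workers for 113 members, below it for 26 and above it for 11. The median over members of its CPM against the mean of the June foundresses was 1.58, and that of the mean of the July workers against the same foundresses was 1.62. Across the 43848 identifiers MW21 was the lowest worker in 42.9% and the highest in 5.35%. By the rule MW21 had to lie above every foundress in each member, which limits how low it can stand among the members. With 1 wasp and members chosen in this way, these values give no measure of month within workers.

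The highest ratio belonged to PmetTSAr2.0-016321. It stood at 28.9, 12.7, 21.4 and 29.4 CPM in the allospecific workers MW30, MW32, MW41 and MW47 and at 17.5, 24.8, 42.1 and 22.9 CPM in the conspecific workers MW21, MW25, MW40 and MW42. In foundresses it stood at 8.34, 1.11, 4.87 and 7.69 CPM for M30, M67, M79 and M91 and at 4.18, 4.73, 5.85 and 5.83 CPM for M1, M15, M4 and M5. The mean was 24.97 ± 8.90 CPM in workers and 5.32 ± 2.23 CPM in foundresses (SD, n = 8 each). No worker overlapped a foundress, yet wasps of a caste differed widely, with the highest worker 3.32 times the lowest and the highest foundress 7.51 times the lowest.

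PmetTSAr2.0-044658 came next, at a ratio of 4.33. Workers had 10.9, 4.17, 6.92 and 14.0 CPM on allospecific nests (MW30, MW32, MW41, MW47) and 5.79, 8.01, 19.2 and 6.19 CPM on conspecific nests (MW21, MW25, MW40, MW42). Foundresses had 4.08, 0.602, 0.803 and 3.18 CPM after training to faces (M30, M67, M79, M91) and 1.90, 2.80, 1.80 and 2.19 CPM after training to patterns (M1, M15, M4, M5). The lowest worker, MW32, was only 1.02 times the highest foundress, M30, and the lowest count was 13. High and low wasps were largely those of PmetTSAr2.0-016321. Once group means were removed, the log2 CPM of these members correlated at 0.84 over the 16 wasps, although their identifier numbers lie far apart.

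PmetTSAr2.0-061774 had a ratio of 3.07, at a low level. Its 8 workers ran from 2.76 to 5.19 CPM with a median of 3.71, and its 8 foundresses from 0.740 to 1.83 CPM with a median of 1.20. Counts were 14 to 84 per library, so counting error weighs on each value, and the lowest worker was 1.51 times the highest foundress. PmetTSAr2.0-117441, with the widest gap of all members, ran from 10.1 to 15.04 CPM in workers and from 3.39 to 6.30 CPM in foundresses. Means were 12.4 ± 1.73 CPM in workers and 4.56 ± 1.00 CPM in foundresses (SD, n = 8 each).

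In PmetTSAr2.0-018769 and PmetTSAr2.0-006447 the workers divided into high and low wasps. PmetTSAr2.0-018769 stood at 10.5, 8.99, 16.2 and 9.01 CPM in the allospecific workers MW30, MW32, MW41 and MW47, at 18.1, 16.2, 16.0 and 16.0 CPM in the conspecific workers MW21, MW25, MW40 and MW42, and at 2.43 to 7.31 CPM in the 8 foundresses. PmetTSAr2.0-006447 stood at 18.5, 13.4, 22.7 and 13.6 CPM in the same allospecific workers, at 26.3, 22.9, 24.2 and 24.6 CPM in the same conspecific workers, and at 4.31 to 9.02 CPM in the 8 foundresses. In each, MW41 was close to the conspecific workers and the other 3 allospecific workers were lower.

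PmetTSAr2.0-108263, at a ratio of 3.003, owed much of its worker mean to 1 wasp. MW25 had 33.8 CPM, whereas the other workers ran from 6.60 to 16.3 CPM and the foundresses from 1.43 to 6.30 CPM. Its mean was 14.1 ± 8.68 CPM in workers and 4.70 ± 1.59 CPM in foundresses (SD, n = 8 each). Leaving out 1 wasp moved its ratio to as little as 2.41.

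**Figure D3:**
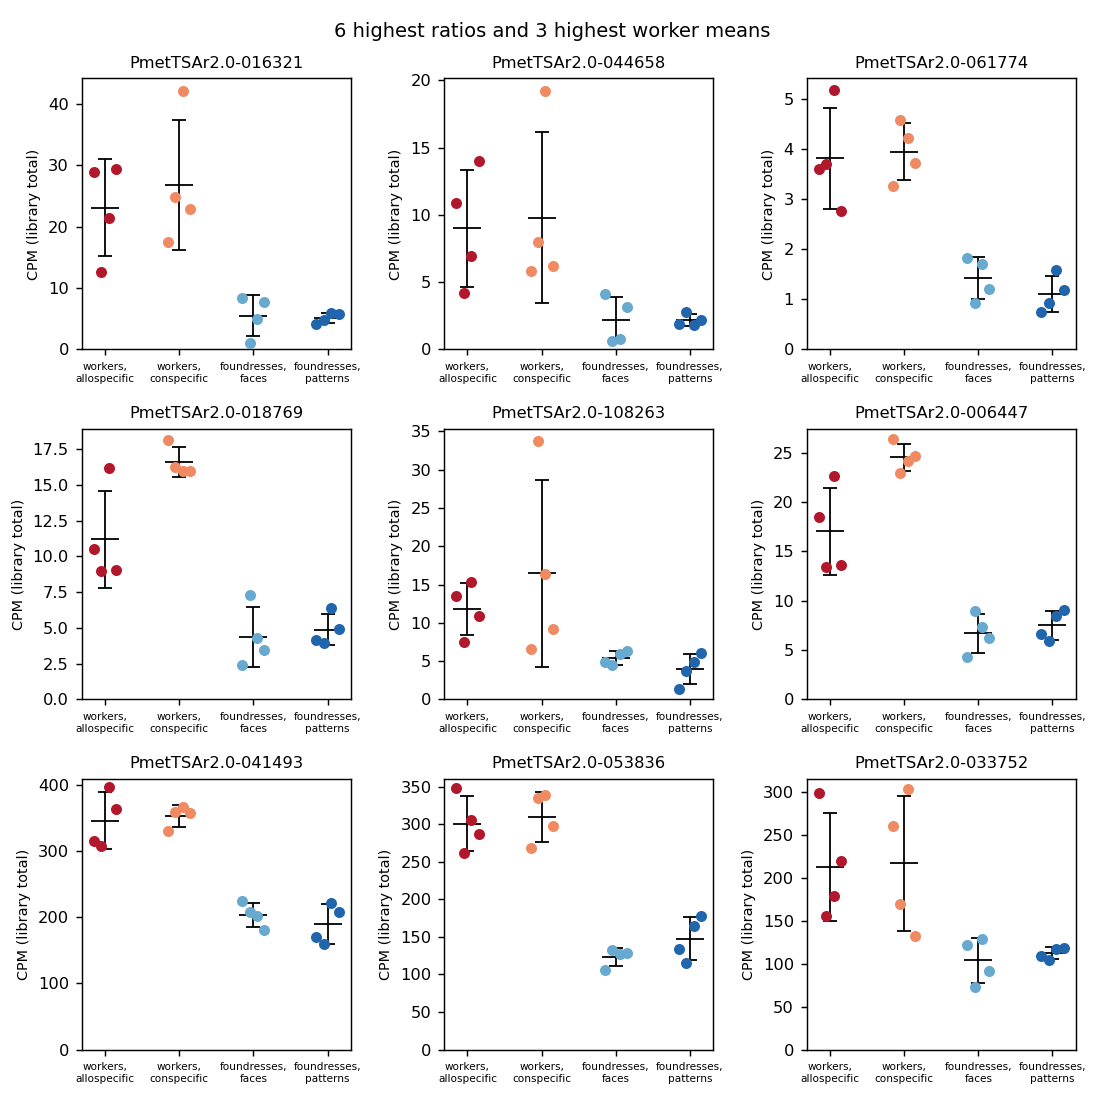
CPM of the 6 members with the highest ratios and the 3 with the highest worker means, with 1 point per wasp and the mean ± SD of each group of 4. PmetTSAr2.0-016321 ranges from 12.7 to 42.1 CPM in workers, while PmetTSAr2.0-041493 stays between 307 and 398 CPM in workers and between 160 and 225 CPM in foundresses.

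The members with the highest worker means were not alike in how much they varied between wasps. The highest worker was 1.295 times the lowest in PmetTSAr2.0-041493 and 1.332 times in PmetTSAr2.0-053836, but 2.289 times in PmetTSAr2.0-033752. The median over members was 1.456 times. For foundresses the values were 1.409, 1.674 and 1.762 times, in the same order, against a median of 1.674 times. PmetTSAr2.0-041493 ran from 307 to 398 CPM in workers with a median of 358 and from 160 to 225 CPM in foundresses with a median of 205. Its ratio was 1.78, on 3121 to 6999 counts per library. PmetTSAr2.0-053836 ran from 262 to 348 CPM in workers with a median of 302 and from 106 to 178 CPM in foundresses with a median of 131, a ratio of 2.25. PmetTSAr2.0-033752 was less even, from 133 to 304 CPM in workers and from 72.8 to 128 CPM in foundresses, and its lowest worker, MW42, was only 1.03 times its highest foundress, M79.

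Within castes, the members' spread was limited by how they were chosen, and it is given without a test. How much of it the choice accounts for was not tested. The highest worker was a median of 1.46 times the lowest, against 1.74 times over the 43848 identifiers. The highest foundress was a median of 1.67 times the lowest, against 1.74 times over the 43848. The SD of log2 CPM was larger among workers than among foundresses in 35 members (23.3%) and in 49.5% of the 43848. Worker values ranged most widely in PmetTSAr2.0-108263, at 5.12 times, and least in PmetTSAr2.0-048637, at 1.13 times, which was singled out after its values were seen.

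**Figure D4:**
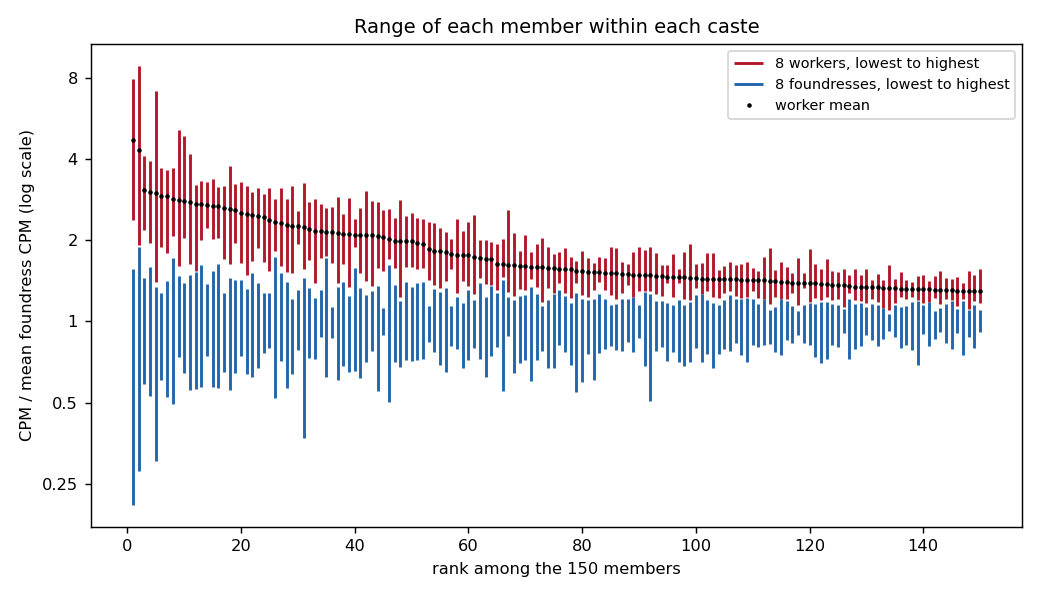
Lowest to highest CPM of each member among the 8 workers and the 8 foundresses, divided by the mean foundress CPM and plotted on a log scale against rank, with the worker mean as a point. The ranges never touch, by the rule, and the gap between them has a median of 1.06 times.

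Many members had neighbours in the numbering of the table. Joined where numbers lay at most 3 apart, the 150 fell into 114 runs, of which 92 held 1 member and 22 held 58 members between them. There were 16 runs of 2 members, 3 runs of 3, and 3 longer ones. Pairs at most 3 apart (48) had a median correlation of 0.88 between their deviations from the group means, and ranged from 0.18 to 0.997. All other pairs had a median of 0.28. For directly adjacent numbers the median was 0.88 in the 23 pairs of members and 0.50 in the 28544 adjacent pairs among the 43848. These correlations describe the same 16 libraries throughout. Both members of a pair had passed the same rule. The mean CPM over the 16 wasps had a median of 13.2 among members and 7.99 among the 43848. What part these differences have in the correlations was not tested. Whether neighbouring identifiers are pieces or variants of a single gene, or share reads, was not tested, so the number of genes behind the 150 identifiers is not known here.

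The longest run held 7 members, from PmetTSAr2.0-083045 to PmetTSAr2.0-083055, with ratios of 1.93 to 2.21 and pairwise correlations within groups of 0.94 to 0.997. Its mean worker levels ran from 22.4 to 196 CPM. PmetTSAr2.0-083051 had 238, 184, 219 and 176 CPM in MW30, MW32, MW41 and MW47, and 198, 166, 232 and 156 CPM in MW21, MW25, MW40 and MW42. In foundresses it had 87.8, 69.8, 134 and 95.2 CPM in M30, M67, M79 and M91, and 88.9, 81.7, 116 and 114 CPM in M1, M15, M4 and M5. PmetTSAr2.0-083050 and PmetTSAr2.0-083054 nearly copied these values, with at most a 1.08-fold difference among these 3 members in any library. They are uncertain as separate transcripts.

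Both runs of 5 members had lower correlations within groups. That from PmetTSAr2.0-061774 to PmetTSAr2.0-061778 had ratios of 2.34 to 3.07 and correlations of 0.66 to 0.93. That from PmetTSAr2.0-053833 to PmetTSAr2.0-053842, which includes PmetTSAr2.0-053836, had ratios of 2.05 to 2.25 and correlations of 0.14 to 0.91. Its lowest correlation was below the median of 0.28 for members farther apart. Mean worker levels in this run went from 4.20 to 305 CPM. PmetTSAr2.0-053841, at the lower end, had as few as 21 counts in a library. What part low counts have in these correlations was not tested.

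Some members more than 3 apart in number followed each other as closely. Of the 11175 pairs of members, 46 correlated above 0.9 within groups, 20 at most 3 apart and 26 farther apart. The 26 include pairs inside the run of 7, where every pair was above 0.9, so many of them are still near in number. Linked at that level they made 16 sets with 45 members. The largest set added PmetTSAr2.0-076498 to the run of 7. The next joined PmetTSAr2.0-018769, PmetTSAr2.0-006447, PmetTSAr2.0-005306 and PmetTSAr2.0-005307 from 3 runs, with ratios of 2.496 to 3.01 and correlations of 0.80 to 0.92. The median log2 deviation of these 4 members from their worker means was -0.59 in MW32, -0.52 in MW47, -0.01 in MW30 and 0.19 in MW41 on allospecific nests. On conspecific nests it was 0.34 in MW21, 0.28 in MW25, 0.26 in MW40 and 0.14 in MW42. These sets were formed from the values themselves and were not tested.

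**Figure D5:**
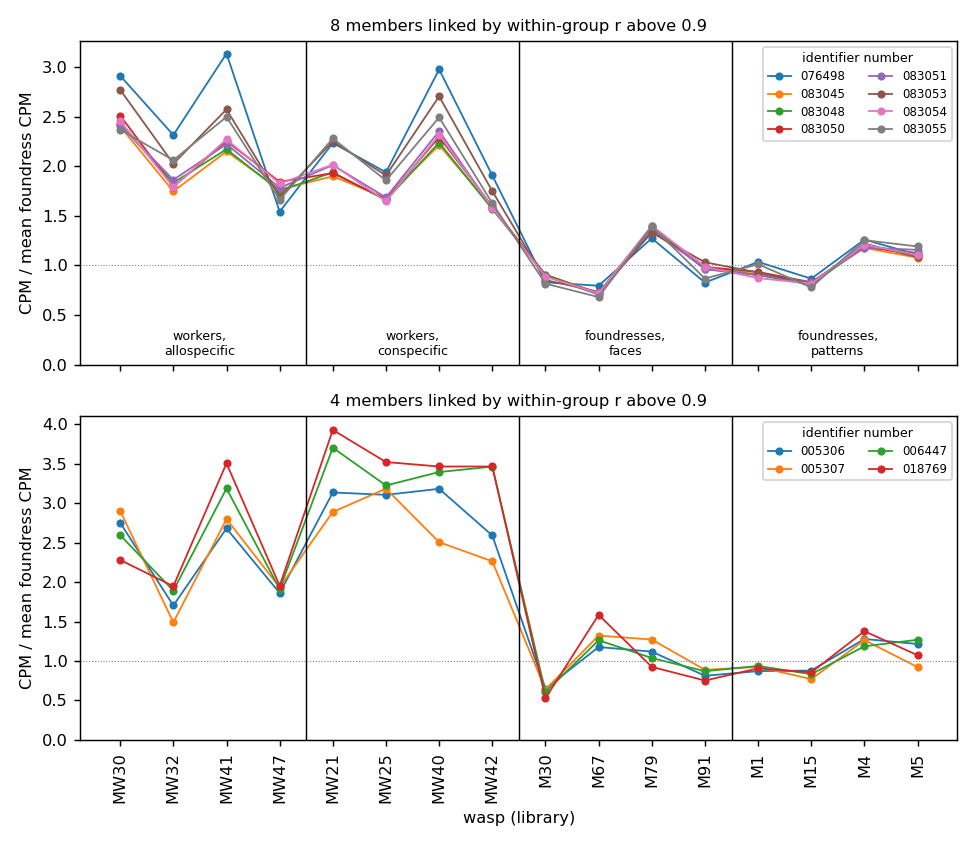
CPM over the mean foundress CPM in each wasp for the 8 members (top) and the 4 members (bottom) linked by within-group correlations above 0.9, with 1 line per member. The upper set peaks in MW30, MW41 and MW40 among workers and in M79 and M4 among foundresses, and the lower set is lowest among workers in MW32 and MW47.

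The rule did not compare wasps within a caste, but it used their values and so limits how far members can spread there. The tests within a caste are therefore not independent of the choice of members, and their counts and p-values are given as a description. Foundresses trained to faces were set against foundresses trained to patterns, which were also collected in different months, to ask whether members differed with the learned stimulus. By edgeR's quasi-likelihood test on libraries scaled by TMM, with p-values adjusted over 55226 identifiers, 0 of the 150 members passed, against 0% of all identifiers tested. DESeq2 and limma-voom also called 0 members, against 0.252% of all identifiers by DESeq2 and 0% by limma-voom. At an unadjusted p under 0.05 there were 21 members (14.0%), against 10.3% of all identifiers. Of these members 2 were higher in faces, where 4.67% of all identifiers were, and 19 (12.7%) were lower, where 5.6% of all identifiers were. With libraries scaled by their totals, as in the rule, there were 11 members (7.33%) against 9.34% of all. Groups did not overlap in 3 members (2.0%), against 6.65% of the 43848. With all wasps, the members' share at an unadjusted p under 0.05 thus lay above the background under TMM and below it by library totals. The share without overlap, which also used library totals, was below it too. Under TMM the members' share fell below the background without M30 (4.67% against 5.32%) and without M91 (8.0% against 9.67%).

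PmetTSAr2.0-035355 had the lowest p among members in that comparison. It stood at 7.79, 10.6, 8.03 and 7.52 CPM in M30, M67, M79 and M91 and at 10.4, 13.7, 10.3 and 12.5 CPM in M1, M15, M4 and M5, so that M67 overlapped the foundresses trained to patterns. The log2 difference, faces minus patterns, was -0.53 ± 0.14 (SE) with an edgeR adjusted p of 0.302. Over the alternatives the adjusted p ran from 0.0981 to 0.899. In all 8 foundresses it lay below the workers' 13.7 to 19.8 CPM. The 3 members without overlap, all lower in faces and named after their values were seen, were PmetTSAr2.0-084216, PmetTSAr2.0-061619 and PmetTSAr2.0-063324. PmetTSAr2.0-084216 averaged 11.4 ± 2.47 CPM (SD, n = 4) after training to faces, against 15.3 ± 0.876 CPM (SD, n = 4) after training to patterns, with an edgeR adjusted p of 0.335.

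Over the 150 members the median log2 difference, faces minus patterns, was -0.13, against 0.00 over all identifiers tested. In faces 37 members were higher, against 27926 of all 55226 identifiers. By library totals the medians were -0.07 over members and 0.06 over all identifiers. With that scaling 52 members were higher in faces, against 32589 of the 55226. The median standard error of a member's difference was 0.16 on the log2 scale.

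Workers from allospecific nests were set against workers from conspecific nests to ask whether members differed with the adults' social surroundings. By edgeR 0 of the 150 passed, against 0% of all identifiers, and DESeq2 and limma-voom also called 0, against 0.00181% of all identifiers by DESeq2 and 0% by limma-voom. At an unadjusted p under 0.05 there were 12 members (8.0%), against 2.29% of all identifiers. All 12 were lower on allospecific nests, where 1.44% of all identifiers were lower and 0.853% higher. They include PmetTSAr2.0-018769, PmetTSAr2.0-006447 and PmetTSAr2.0-005306, which belong to the same linked set, so the 12 are not independent of each other. With libraries scaled by their totals there were 5 members (3.33%), against 1.94% of all, and under TMM without MW21 there were 4 (2.67%), against 1.48% of all. Under TMM without MW47 there were also 4 (2.67%), below the 3.03% of all. Groups did not overlap in 4 members (2.67%), against 1.22% of the 43848.

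Of the 4, PmetTSAr2.0-006447, PmetTSAr2.0-011909 and PmetTSAr2.0-071753 were lower on allospecific nests and PmetTSAr2.0-031068 was higher. All but the first were named after their values were seen. PmetTSAr2.0-006447, which had the lowest p, averaged 17.0 ± 4.42 CPM (SD, n = 4) on allospecific nests, against 24.5 ± 1.41 CPM (SD, n = 4) on conspecific ones. Its log2 difference, allospecific minus conspecific, was -0.62 ± 0.20 (SE) with an edgeR adjusted p of 1, and 0.985 to 1 over the alternatives. PmetTSAr2.0-018769 had a log2 difference of -0.66 ± 0.25 (SE) with an edgeR adjusted p of 1. PmetTSAr2.0-011909 averaged 5.84 ± 0.516 CPM (SD, n = 4) on allospecific nests, against 7.87 ± 0.7004 CPM (SD, n = 4) on conspecific ones, with an edgeR adjusted p of 1. PmetTSAr2.0-031068 averaged 11.3 ± 1.30 CPM (SD, n = 4) on allospecific nests, against 9.58 ± 0.597 CPM (SD, n = 4) on conspecific ones.

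The median log2 difference of the members, allospecific minus conspecific, was -0.11, against 0.00 over all identifiers tested. On allospecific nests 26 members were higher, against 27221 of all 55226 identifiers. By library totals the median was -0.03, against 0.07 over all identifiers. With that scaling 62 members were higher on allospecific nests, against 35436 of the 55226. The TMM factor of MW21 was 0.853 and those of the other 7 workers 0.990 to 1.08. Without MW21 the median under TMM was -0.04, and 51 members were higher on allospecific nests, against 28473 of 56340 identifiers. Of the members with many counts, log2 differences were -0.11 ± 0.12 (SE) in PmetTSAr2.0-041493, -0.11 ± 0.13 (SE) in PmetTSAr2.0-053836 and 0.04 ± 0.18 (SE) in PmetTSAr2.0-083051, each at an edgeR adjusted p of 1.

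Membership depended on how libraries were scaled. Under TMM scaling 110 of the 150 still had every worker above every foundress, under DESeq2 size factors 98, and with library totals that leave out the 96 identifiers 100. In 92 members the separation held under all 3. These included 42 of the 46 with a ratio above 2, 23 of the 42 between 1.5 and 2, and 27 of the 62 at or below 1.5. All 51 members whose lowest worker stood over 1.1 times above the highest foundress were among the 92. The median ratio of the 92 was 1.97, and that of the other 58 was 1.45. The 15 members picked by the naming rule were also all among the 92.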

How the data were processed

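Brain RNA of 16 wasps was sequenced, and the deposited table holds, per transcript identifier, whole-number counts that are not normalized. Per the submitters' processing notes, Trimmomatic 0.32, Bowtie2 and eXpress were used. For the transcript set, the options, the strand, the assignment of shared reads and any rounding of estimates, the steps were not given in the sources used here. Columns were joined to samples by the wasp number in the labels. Nothing says that wasps of a group came from separate nests.

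CPM is the deposited count divided by the library total. Identifiers passing filterByExpr (55226) were tested across the whole table with edgeR 4.0.16 in R 4.3.3 (quasi-likelihood, TMM, 4 group means, Benjamini-Hochberg adjustment), and a call is an adjusted p under 0.05. Standard errors (SE) of log2 differences were derived by dividing the size of the difference by the square root of the test's F statistic. The code was tested on simulated data. Alternatives used DESeq2 1.42.0, limma 3.58.1 and other scalings and filters.

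The members and comparisons were chosen with earlier results of these data known. Members named are the 6 with the highest ratios, the 3 with the highest worker means, the 3 with the widest gaps, those on either side of the limit, the lowest p within each caste, and 3 of the longest run. Other identifiers (ends of runs, linked sets, members without overlap) were named after their values were seen.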

Additional observations from a re-analysis of the deposited data

Results flagged for a closer look

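Among 68 groups of 4 values examined, 4 held a wasp far from the other 3, where chance marks about 1 in 20 groups. MW40 had 19.2 CPM of PmetTSAr2.0-044658, against 5.79 to 8.01 CPM in the other conspecific workers. MW21 had 18.1 CPM of PmetTSAr2.0-018769, where the other conspecific workers had 16.0 to 16.2 CPM. M79 gave 0.362% of its counts to the 150 members, where the other foundresses trained to faces gave 0.291% to 0.304%. M67 had 10.6 CPM of PmetTSAr2.0-035355, where the other foundresses trained to faces had 7.52 to 8.03 CPM.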

How the results depend on the processing

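The number of identifiers with every worker above every foundress, 168, lay from 171 to 398 with 1 wasp left out, a step that cannot lower it. Of the 150 members, 99 were chosen again under TMM and 98 under DESeq2 size factors, and 78 to 147 with 1 wasp left out, fewest without MW30, then 91 without MW21 and 92 without M4. Members at an unadjusted p under 0.05 between faces and patterns, 21, were 11 by library totals, and 7 (without M30) to 32 (without M79) with 1 wasp left out, with 12 without M91. As shares these were 4.67% without M30, 21.3% without M79 and 8.0% without M91, against 5.32%, 12.5% and 9.67% of all identifiers. Those between nests, 12, were 5 by library totals and 4 to 15 with 1 wasp left out, with 4 each without MW21 and without MW47 and 7 without MW32. As shares these were 2.67%, 2.67% and 4.67%, against 1.48%, 3.03% and 3.86% of all identifiers. The median log2 difference of members between nests, -0.11, was -0.0287 by library totals and -0.0387 without MW21, and that between faces and patterns, -0.13, was -0.0687 by library totals and -0.0817 without M30. Library totals in the tests were tried only after the data were seen. Under the alternatives run, 0 members were called within a caste, while between faces and patterns DESeq2 called 139 of all identifiers, the fit with no filter on low counts 33, that without M79 11 and that without M67 1, and between nests DESeq2 called 1. Ratios of the 16 named identifiers moved at most 1.247-fold. No paired analysis was possible because the labels give no replicate numbers that groups share. Low counts limit 11 members, which had under 20 counts in some library.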
